A study of Mus musculus with 14 samples.

Results

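The step from 8 h to 16 h of GATA6-driven differentiation of mouse embryonic stem (mES) cells spans the removal of doxycycline (Dox), and its chromatin accessibility was described from 4 ATAC-seq peak lists, 2 at 8 h and 2 at 16 h. In ATAC-seq a transposase inserts adapters into open DNA, and a peak is a stretch where insertions pile up. The 4 lists were merged by overlap of 1 bp or more into 83598 regions, of 124598 regions in all 14 libraries of the series. Gained regions are those that both 16 h lists and no 8 h list called, lost regions are those that both 8 h lists and no 16 h list called, and all 4 lists called the shared regions. By this rule 7175 regions were gained (8.58% of the 83598), 4549 were lost (5.44%) and 40079 were shared (47.9%). A further 31795 regions were called in another combination of libraries and are not described.

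All libraries came from KH2 mES cells, labelled as strain C57BL/6, that carry a Dox-inducible transgene placing GATA6 and the fluorescent protein DsRed2 under a tetracycline response element (TRE), and each was made from 50000 cells. The 8 h cells had been in serum medium with LIF and Dox at 1 µg/mL for 8 h. The 16 h cells had the same medium with Dox for 12 h and then 4 h without Dox. The 0 h cells, used here to mark regions that were open beforehand, had no Dox and were kept in serum-free 2i medium with LIF, so they differ from the other groups in medium as well. No library came from cells kept on Dox to 16 h, and none from cells in serum that never saw Dox, so elapsed time and Dox removal cannot be told apart between 8 h and 16 h. The labels do not say whether the libraries of a time point came from separate cultures, so their spread may be technical.

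GATA6 is a zinc-finger transcription factor that directs cells of the blastocyst to primitive endoderm (PrE), the layer that lines the yolk sac, and away from the pluripotent epiblast (Epi). It binds short GATA motifs, also where they lie in closed chromatin. AP-1, a dimer of FOS and JUN family proteins, is an early responder to growth factors, and SOX factors include SOX2 of pluripotent cells and SOX17 of endoderm.

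The central 200 bases of the highest-ranked region of each of 4 classes are printed below because the classes differed in the motifs they hold. Sequences are RefSeq GRCm38, plus strand, and capitals mark matches on either strand to the GATA motif (the letters AGATAA, the letters AGATAG, the letters TGATAA or the letters TGATAG), the AP-1 motif (TGANTCA, where N is any base) or the SOX motif (the letters AACAATG or the letters AACAAAG). The first was gained and had been open at 0 h, and lies in chr6:85849353-85849552 between genes, 17371 bp from the transcription start site (TSS) of Nat8. The second was gained and closed at 0 h, and lies in chr10:78004773-78004972 in an intron of Pfkl. The third was lost and had been open at 0 h, and lies in chr8:124416609-124416808 in an intron of Pgbd5. The fourth was lost and closed at 0 h, and lies in chr4:133070940-133071139 in an intron of Ahdc1.
Nat8 (gained, open at 0 h): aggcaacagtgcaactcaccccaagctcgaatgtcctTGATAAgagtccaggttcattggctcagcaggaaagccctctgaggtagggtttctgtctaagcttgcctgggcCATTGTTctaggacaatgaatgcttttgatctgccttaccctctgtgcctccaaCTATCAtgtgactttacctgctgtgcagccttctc
Pfkl (gained, closed at 0 h): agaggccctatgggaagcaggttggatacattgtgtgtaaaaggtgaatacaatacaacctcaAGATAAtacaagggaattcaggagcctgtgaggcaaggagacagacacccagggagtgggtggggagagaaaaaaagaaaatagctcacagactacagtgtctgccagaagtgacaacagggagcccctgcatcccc
Pgbd5 (lost, open at 0 h): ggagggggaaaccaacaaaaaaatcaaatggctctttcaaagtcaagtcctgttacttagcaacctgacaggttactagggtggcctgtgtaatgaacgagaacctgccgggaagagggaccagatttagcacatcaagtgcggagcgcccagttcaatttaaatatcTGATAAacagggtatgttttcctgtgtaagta
Ahdc1 (lost, closed at 0 h): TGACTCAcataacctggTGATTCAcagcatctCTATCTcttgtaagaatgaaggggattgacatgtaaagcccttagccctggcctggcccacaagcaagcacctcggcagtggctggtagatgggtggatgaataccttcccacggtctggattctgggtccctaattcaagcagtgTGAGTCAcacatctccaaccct
The Ahdc1 region holds 3 AP-1 matches beside its GATA match, and the other 3 regions hold GATA matches with no AP-1 match. A GATA match is not typical of regions open at 0 h, being in 18.3% of gained and 27.1% of lost ones.

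The 8 h lists held 61393 and 61403 peaks, and the 16 h lists 61857 and 65073. The peaks at 8 h covered 27.1 ± 0.860 Mb (SD, n = 2), and those at 16 h 30.4 ± 1.14 Mb (SD, n = 2), and the median peak was 388 and 403 bp wide at 8 h and 447 bp wide in each 16 h library. Both measures were higher in both 16 h libraries, with p = 0.333 by an exact two-sided permutation test, the smallest that 2 libraries against 2 can give. The lists hold no read counts, so depth is unknown from them. The study's sequencing summary gives both 16 h libraries more reads than both 8 h libraries, and the part of depth in the results was not tested.

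The gains outnumbered the losses by 1.58 to 1, and covered 3.32 Mb against 1.84 Mb. When each list was limited to its 50000 highest-scoring peaks, which gives all libraries the same number, 5898 regions were gained and 4428 lost. Gain and loss were also checked in libraries it had not used. Regions called at 16 h and not at 8 h within 1 replicate number were called in 65.1% ± 8.35 of cases in the 16 h library of the other number and in 25.7% ± 1.45 of cases in its 8 h library (SD, n = 2 replicate numbers). For regions called at 8 h and not at 16 h, these shares were 28.0% ± 4.46 at 16 h and 56.6% ± 1.30 at 8 h. The direction therefore held in the other pair in both replicate numbers, while a call in 1 pair alone was often not repeated. Leaving out any 1 library, which also loosens the rule, gave 10065 to 13039 gained and 6647 to 8948 lost regions, with more gained than lost each time. The gained count was over 1.5 times larger only without 16 h replicate 1 (13039), and the lost count only without 8 h replicate 1 (8948), 8 h replicate 2 (8787) or 16 h replicate 2 (7288).

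Most gained regions had no call before induction. Of the 7175, 4956 (69.1%) were called in neither 0 h library, 1428 (19.9%) were called in both, and 791 were called in 1. The 1428, absent from both 8 h lists, are termed reopened below, though a region without a call may be accessible below the threshold. Among shared regions 69.3% were called in both 0 h libraries. None of the 6 libraries of 0, 2 and 4 h called 4301 of the gained regions (59.9%).

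The gained regions that had been open at 0 h were chosen for calls in both 0 h libraries. They were called in 49.9% ± 3.91 of cases at 2 h and 44.8% ± 2.13 at 4 h (SD, n = 2), and by the rule in none at 8 h. At 24 h they were called in 46.9% ± 4.11 of cases and at 48 h in 28.2% ± 0.446. Calls in both libraries of 24 h and both of 48 h were held by 253 of the 1428, and 579 (40.5%) were called in none of those 4 libraries. The gained regions closed at 0 h were seldom called earlier, with 4.42% ± 0.656 at 2 h and 6.56% ± 0.770 at 4 h, and were called in 60.7% ± 0.942 of cases at 24 h and 47.1% ± 0.371 at 48 h. In all 4 libraries of 24 and 48 h, 1732 of these 4956 regions (34.9%) were called. Of the regions gained without an earlier call, 1052 were called at 16 h and in no other library of the series.

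The lost regions divided by their state at 0 h into 1024 called in both libraries (22.5%), 2978 called in neither (65.5%) and 547 called in 1. Those closed at 0 h had gained a call and lost it again within the first 16 h. At 2 h 46.5% ± 2.11 of them were called on average and at 4 h 62.9% ± 3.28 (SD, n = 2). The later shares were 9.42% ± 0.0712 at 24 h and 11.6% ± 0.902 at 48 h. All 4 libraries of 2 and 4 h and none of the 4 libraries of 24 and 48 h called 991 of them (33.3%). The lost regions open at 0 h were called in 84.0% ± 3.04 of cases at 2 h and 83.2% ± 0.621 at 4 h. At 24 h their share was 18.8% ± 1.17 and at 48 h 17% ± 2.76. Of all 4549 lost regions, 3344 (73.5%) were called in no library of 24 or 48 h, against 2078 (29.0%) of the gained regions.

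**Figure D1:**
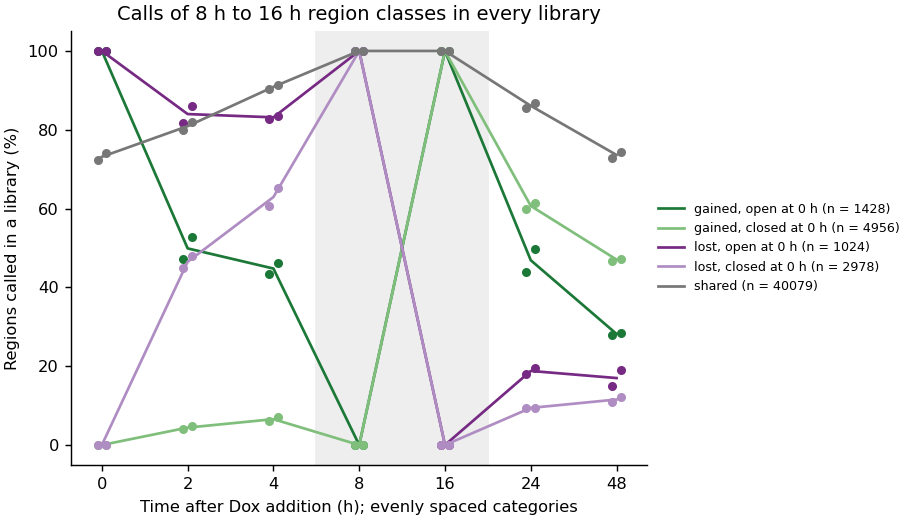
Share of regions called (%, y axis) in each library (points) and as the mean of the 2 libraries of a time point (lines) over time after Dox addition (h, x axis, evenly spaced categories) for gained and lost regions divided by their state at 0 h and for shared regions. The shaded time points, and 0 h for the divided classes, are fixed by the rule; the regions lost and closed at 0 h reach 62.9% at 4 h and are at 9.42% at 24 h.

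The regions gained with the highest ranks stayed open to 48 h. The score deposited with each peak was used only as a percentile within its own library, from 0 for the weakest to 100 for the strongest peak. The intronic Pfkl region (chr10:78004583-78005162), 4934 bp from a TSS of this gene for a subunit of phosphofructokinase in glycolysis, was at percentiles 95.3 and 97.4 at 16 h, 91.4 and 94.9 at 24 h, and 91.1 and 90.6 at 48 h, and was called in no library of 0 to 8 h. The next regions closed at 0 h were chr2:92034244-92034776, between genes and 10008 bp from Creb3l1 (percentiles 90.3 and 94.6 at 16 h), and chr19:9940817-9941458, 39460 bp from Fth1, which encodes the ferritin heavy chain (90.3 and 94.2). The Fth1 region holds 4 SOX matches and a match to the FOXA motif (TGTTTAC), and no GATA match. All 3 were called in every library from 16 h on and in none before.

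The 3 reopened regions with the highest 16 h ranks were at lower percentiles at 0 h. The Nat8 region (chr6:85849106-85849799) was at percentiles 68.7 and 78.0 at 0 h, was not called at 2 h, was at 26.7 and 37.0 at 4 h, was not called at 8 h, and was at 93.8 and 92.4 at 16 h. The region 26944 bp from Tcf7l2, a transcription factor of the Wnt pathway (chr19:55714545-55715206), was at 54.3 and 50.4 at 0 h, in no library of 2, 4 or 8 h, at 89.4 and 95.6 at 16 h and at 98.3 and 96.7 at 48 h. An intronic region of the calcium channel gene Cacna1a (chr8:84459360-84459886) was at 30.9 and 9.76 at 0 h and at 88.5 and 91.7 at 16 h. All 3 were called in both libraries of 24 and of 48 h. These regions top a list ordered by their 16 h percentiles, so their height at 16 h was fixed by the choice.

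Among the lost regions of highest rank, 4 of 6 ranked higher at 2 h than at 8 h, and those of Uri1 and Atf7 were highest at 8 h. The intronic Ahdc1 region (chr4:133070826-133071253) was not called at 0 h, was at percentiles 99.6 and 99.5 at 2 h, 98.7 and 98.4 at 4 h and 83.6 and 81.9 at 8 h, and was called in no later library. An intronic region of Lamc1 (chr1:153300345-153300814), the gene of the laminin γ chain of basement membrane, followed with 99.0 and 98.2 at 2 h, 93.0 and 96.1 at 4 h and 82.5 and 81.9 at 8 h, and was not called afterwards. It holds 2 AP-1 matches and 1 GATA match. An intronic region of Atf7 (chr15:102614238-102614603) with 3 GATA matches and no AP-1 match was first called at 4 h (39.4 and 63.9) and was at 81.7 and 82.5 at 8 h. Among lost regions open at 0 h, the Pgbd5 region (chr8:124416410-124417008) was at 41.1 and 26.4 at 0 h, 95.0 and 94.9 at 2 h, 97.0 and 96.6 at 4 h and 88.4 and 89.2 at 8 h. The region 22300 bp from the deubiquitinase gene Usp24 (chr4:106293646-106294180) was at 20.7 and 41.1 at 0 h, 93.9 and 91.6 at 2 h and 69.9 and 73.8 at 8 h, and neither was called after 8 h. An intronic region of Uri1 (chr7:37999750-38000216) was at 77.5 and 67.0 at 8 h and differed in being called again in both 24 h libraries, at 16.0 and 50.8.

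The AP-1 motif separated the lost regions from the gained ones. It was found in 29.5% of lost regions and 4.56% of gained regions, against 8.14% of shared and 9.85% of all 83598 regions. Lost regions closed at 0 h held it in 36.4% of cases and those open at 0 h in 17.2%, and gained regions held it in 4.82% when closed and 3.57% when open. When the classes were formed within 1 replicate number, the motif was in 20.8% ± 0.408 of lost and 5.16% ± 0.440 of gained regions (SD, n = 2 replicate numbers). The order was kept in each of 5 bins of GC content of the 200 bases, with 28.7% of lost against 5.2% of gained regions in the bin lowest in GC and 11.6% against 2.23% in the highest. Lost regions had a median GC content of 48.5% and gained regions of 51%. Over 5 kb from a TSS the shares were 30.9% of lost and 4.78% of gained regions.

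The GATA motif went with the state at 0 h more than with gain or loss. It was in 52.4% of gained and 63.6% of lost regions that had been closed at 0 h, but in 18.3% of gained and 27.1% of lost regions that had been open, against 37.2% of all regions. A permuted control motif (the letters AAGTAA, the letters AAGTAG, the letters TAGTAA or the letters TAGTAG) was in 21% and 24.2% of the closed and in 20.2% and 18.2% of the open ones, against 19.2% of all regions. Gained and lost regions as a whole held the GATA motif in 42.3% and 51.0% of cases, and within replicate numbers in 39.4% ± 2.56 and 43.5% ± 3.41 (SD, n = 2), where the ranges overlap. At least 2 GATA matches were in 31.9% of lost and 18.1% of gained regions closed at 0 h, where median GC content was 47.5% and 51%. Across the 5 bins of GC content the order of gained and lost regions was not kept. Closed at 0 h, 76.1% of gained and 81.3% of lost regions held a match in the lowest bin. These shares were 63.3% and 62.7% in the next bin and 12.9% and 14.6% in the highest. For all gained and all lost regions they were 66% and 72.3% in the lowest and 10.8% and 7.75% in the highest bin. GATA and AP-1 matches stood together in 21.4% of lost regions closed at 0 h and in 2.22% of gained ones.

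The SOX motif was commoner in gained regions, at 17.5%, than in lost (9.45%), shared (8.88%) or all regions (10.2%). Within replicate numbers it was in 14.3% ± 0.208 of gained and 9.01% ± 0.610 of lost regions (SD, n = 2). Its share was higher in gained regions in all 5 bins of GC content, from 31.0% against 14.1% in the lowest to 4.87% against 2.71% in the highest. Regions that reopened held it in 21.1% of cases and newly gained ones in 17.1%. The octamer motif of OCT4 (ATGCAAAT) was in 4.62% of reopened and 2.54% of newly gained regions, and the motif shared by ESRRB and NR5A2 (CAAGGTCA) in 4.62% and 1.61%, against 2.30% and 1.89% of all regions. Lost regions open at 0 h held these motifs in 3.61% and 3.52% of cases, and lost regions closed at 0 h in 2.22% and 2.08%. Both motifs were thus commoner in regions open at 0 h, whether gained or lost. ESRRB, NR5A2 and OCT4 are factors of pluripotent cells. The matches are letters in the reference sequence, and binding was not measured in these libraries.

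**Figure D2:**
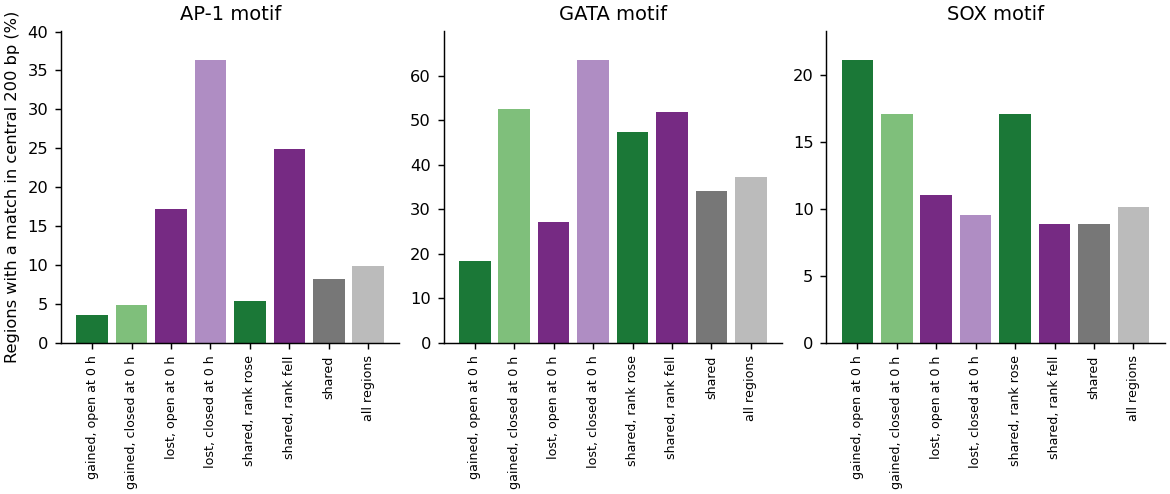
Share of regions (%, y axis from 0, scaled separately in each panel) with at least 1 match to the AP-1, GATA or SOX motif in their central 200 bases, for gained and lost regions by state at 0 h, shared regions whose score rank rose or fell, all shared regions and all 83598 regions. AP-1 is in 36.4% of regions lost and closed at 0 h and in 24.9% of shared regions that fell, against 9.85% of all regions.

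The lost regions with an AP-1 match were mostly those of the early transient. Among lost regions closed at 0 h, the 1084 with a match were called in 76.8% ± 2.09 of cases at 2 h and 87.1% ± 2.28 at 4 h, and the 1894 without one in 29.2% ± 2.13 and 49.1% ± 3.85 (SD, n = 2). At 24 h the shares were 3.74% ± 0.587 with and 12.7% ± 0.224 without a match. The share of lost regions with AP-1 was also higher at higher score, being 22.4% of those with a mean 8 h percentile under 25, 32.4% from 25 to 50, 47.3% from 50 to 75 and 50% of the 32 regions above. Newly gained regions with a SOX match were called in 68.5% ± 1.42 of cases at 24 h and 60.2% ± 1.59 at 48 h, and those without in 59.1% ± 0.843 and 44.3% ± 0.120.

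Gained and lost regions were weak and narrow peaks. The median score percentile of gained regions was 26.8 and 33.7 in the 16 h libraries and that of lost regions 27.5 and 25.6 in the 8 h libraries, and shared regions were at 66.0 and 66.0 at 8 h and 65.9 and 67.5 at 16 h. In the weaker part of their library, under percentile 50, lay 79.6% ± 5.10 of gained and 85.6% ± 1.20 of lost regions, against 30.2% ± 0.169 of shared regions at 8 h (SD, n = 2). Median peak width was 405 ± 8.49 bp in gained regions at 16 h, 330.5 ± 3.54 bp in lost regions at 8 h, and 460 ± 12.7 bp at 8 h and 501 ± 0 bp at 16 h in shared regions. In the same shared regions the 16 h peak was the wider in 63.7% of cases in replicate 1 and 59.7% in replicate 2, by a median of 17 and 12 bp. The widths of gained and lost regions come from libraries that differ in width throughout, and that part was not tested.

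**Figure D3:**
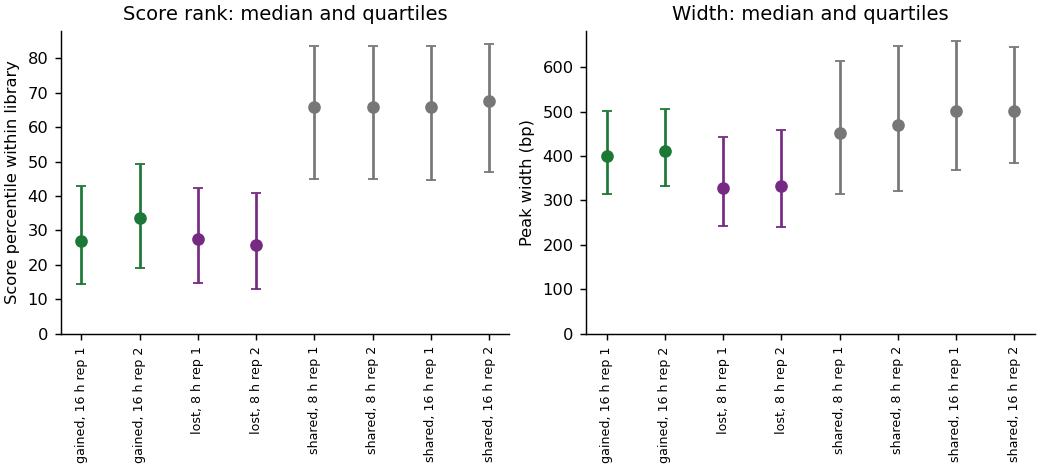
Median (points) and quartiles (bars) of the score percentile within the library (left, 0 to 100) and of peak width in bp (right) for gained regions in the 16 h libraries, lost regions in the 8 h libraries and shared regions in all 4. Gained and lost regions have medians between percentiles 25.6 and 33.7, and shared regions between 65.9 and 67.5.

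Changed regions lay away from TSSs. Within 5 kb of the TSS of a protein-coding transcript (promoter-proximal) were 19.5% of gained and 16.4% of lost regions, against 39.8% of shared and 30.7% of all regions. The median distance was 22902 bp for gained, 25128 bp for lost and 10330 bp for shared regions. Centres lay in introns for 46.8% of gained and 48.4% of lost regions and in exons for 6.05% and 5.10%, and exons held 17.1% of shared regions. Which of gained and lost was nearer depended on the measure, since 7.29% of gained and 8.11% of lost regions lay within 1 kb, and with every peak cut to the 200 bp around its midpoint 21.2% and 21.8% lay within 5 kb. Lost regions closed at 0 h were proximal in 13.6% of cases and those open at 0 h in 18.1%, while gained regions were proximal in 18.5% and 18.7%.

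**Figure D4:**
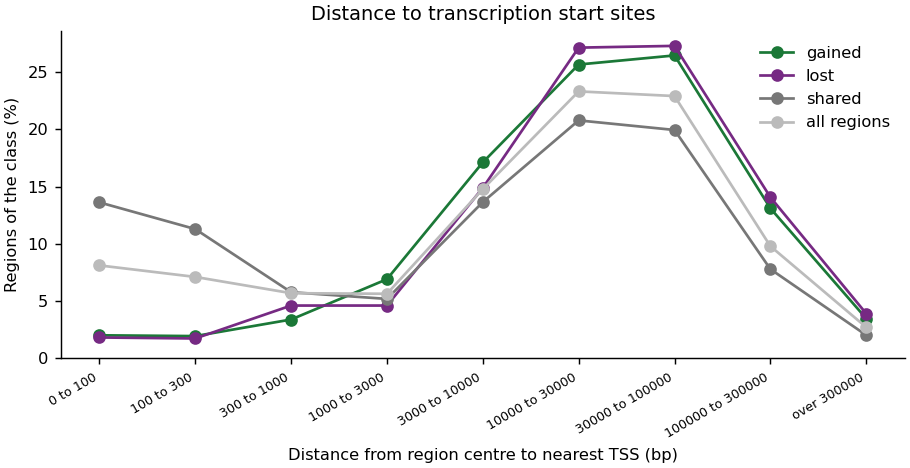
Share of regions of each class (%, y axis from 0) by distance from the region's centre to the nearest TSS of a protein-coding transcript (bp, x axis, bins of growing width). Gained and lost regions follow each other closely, with about 2% (1.99% and 1.80%) within 100 bp against 13.6% of shared regions.

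Each region was given to its closest gene by TSS, up to a limit of 50 kb, which reached 4985 gained and 3124 lost regions. Gained regions went to 3767 genes and lost regions to 2671, and 837 genes had both. Among genes with gained and no lost regions Tns3, which encodes the adhesion protein tensin 3, led with 8 gained regions, of which 6 were closed at 0 h and 4 were called in both libraries of 24 h and 4 in both of 48 h. Galnt10, Smco4, Gnaz and Adpgk followed with 6 each. Galnt10 starts O-glycosylation, Gnaz encodes a G protein subunit and Adpgk an ADP-dependent glucokinase. All 6 regions at Adpgk were closed at 0 h and called in both 24 h libraries, but 1 was called in both 48 h libraries. At least 3 gained regions went to 225 genes and at least 3 lost regions to 64, with fewer lost regions to assign, and a difference in spread was not tested. Among genes tied at 3 lost and no gained regions, the most found, the highest mean percentiles were at Specc1l, Ifnlr1, Atp5j, Tnk2 and Mid1. The 3 regions at Specc1l, a cytoskeletal linker gene, were closed at 0 h, called in both libraries of 2, 4 and 8 h, and none was called in both libraries of 24 or of 48 h, and 2 of them hold an AP-1 match. Ifnlr1 encodes an interferon receptor, Atp5j a subunit of ATP synthase, Tnk2 a kinase and Mid1 a ubiquitin ligase.

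PrE genes gained more regions than they lost, and so did Epi genes and genes as a whole. At the study's PrE genes, of which 577 of 579 symbols matched, 292 of 3037 regions were gained and 133 lost, so gains were 68.7% of changed regions, against 61.5% over all genes. At its Epi genes (220 of 221 matched) 113 of 1428 regions were gained and 76 lost, a gained share of 59.8%. Within replicate numbers these shares were 60.9% ± 2.24 for PrE, 57.0% ± 4.08 for Epi and 56.0% ± 3.52 for all genes (SD, n = 2), so PrE genes were above all genes by more than either SD, and Epi genes by less. The share was higher at PrE than at all genes in both replicate numbers, 59.3% against 53.6% and 62.4% against 58.5%. At Epi genes it was also above all genes in both, though by less, at 54.1% and 59.9%. Of gained regions at PrE genes 16.1% were open at 0 h, and at Epi genes 19.5%.

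Over all genes 7.87% of regions were gained and 4.94% lost, and the counts of the shorter lists stand against these shares. Genes of PrE regulators, receptors and transporters had 23 gained and 6 lost of 142 regions, 16.2% and 4.23%. Klf5, a transcription factor of the early embryo, had 4 gained and 1 lost region. Its gained region at chr14:99264348-99265001, between genes and 34016 bp from the TSS, was at percentiles 86.2 and 81.8 at 16 h. It was called in no earlier library and in all libraries of 24 and 48 h. The gained region 22621 bp from the TSS was also called in all libraries of 24 and 48 h. Those 24776 and 5455 bp away were called in none at 24 h, and in none and 1 at 48 h. Cubn, the endocytic receptor cubilin of PrE, had 4 gained and no lost region. Pdgfra, the PDGF receptor that marks PrE, had 3 gained and 1 lost. Its gained region 850 bp from a TSS was called in both libraries at 24 and 48 h. The gained region 12031 bp away was called in no library of 24 or 48 h, and that 2204 bp away in 1 library at 24 h and none at 48 h. Gata4 and Sox17, transcription factors of endoderm, had 2 gained regions each and none lost.

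Basement membrane genes, which PrE cells use to lay down their matrix, had 11 gained and 5 lost of 93 regions, 11.8% and 5.38%, against 7.87% and 4.94% over all genes. At Lama1, the laminin α chain gene, 2 regions were gained and 2 were lost. The gained region at chr17:67685351-67685912, 11627 bp from the TSS, was at percentiles 73.1 and 75.6 at 16 h and was called in all libraries of 24 and 48 h. The other gained region, chr17:67703013-67703385, was at 58.3 and 66.3 at 16 h and was called in no library of 24 or 48 h. A lost intronic region at chr17:67706415-67706699 with 2 GATA matches and 1 AP-1 match was called in both libraries at 2, 4 and 8 h and in none after. Lamb1 had 3 gained and none lost, and Sparc 2 gained and 1 lost.

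At naive pluripotency genes 22 of 160 regions were gained (13.8%, against 7.87% over all genes) and 7 lost (4.38%, against 4.94%). Of the gained regions 5 had been open at 0 h and 15 had been closed. Klf4, a factor of naive pluripotency, had 4 gained and 2 lost regions, none of the gained ones called at 0, 2 or 4 h. Prdm14, a repressor in pluripotent and germ cells, had 3 gained and 1 lost. Chosen after its values were seen, the region on the Nanog TSS (chr6:122707348-122707659) was called in both libraries at 0 h, 1 at 2 h, both at 4 h and none at 8 h, was at percentiles 56.3 and 44.7 at 16 h, and was called in 1 library at 24 h and none at 48 h. Nanog is a core factor of pluripotency. At Esrrb 2 of 3 gained regions, also chosen afterwards, showed calls in both libraries at 0 h and 16 h and in none at 8, 24 or 48 h. The other gained Esrrb region was called in no library of 0 to 8 h and in both libraries of 16, 24 and 48 h.

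Genes of FGF signalling and its ERK feedback had 12 gained and 2 lost of 131 regions, 9.16% and 1.53%, so that their gained share was near the 7.87% of all genes, and none of the 12 was called in both 0 h libraries. Etv5, an ERK target, had 2 gained and 1 lost. Fgfr2, Spry4 and Spred2, a receptor and a pair of feedback inhibitors, had 2 gained each and none lost. The lost Etv5 region (chr16:22389156-22389572) holds 2 AP-1 matches and was called in both libraries at 2, 4 and 8 h and in none before or after. Formative and primed epiblast genes had 1 gained and 2 lost of 65 regions, 1.54% and 3.08% against 7.87% and 4.94% over all genes. The gain was at the DNA methyltransferase gene Dnmt3b, and the losses were at Lef1 and Sall2. Genes of AP-1 subunits and relatives had 2 gained and 2 lost of 49 regions, 4.08% each against 7.87% and 4.94% over all genes, with both losses at Atf3, about 11 to 12 kb from its TSS (11154 and 12157 bp).

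The shared regions, which gain and loss leave out, were tested for a change in rank. Scores were turned into normal scores of their rank within each library, where 1 unit is 1 SD of ranked peaks, and 16 h was compared with 8 h by limma. At an adjusted p under 0.05 (Benjamini-Hochberg), 3269 of 40079 regions rose (8.16%) and 2214 fell (5.52%), and 10953 had an unadjusted p under 0.05. The median change was 0.90 among risen and -0.86 among fallen regions. The excess of rises rested on having both 16 h libraries. Rises and falls were nearly even without 16 h replicate 1, and falls outnumbered rises without 16 h replicate 2.

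The shared regions that fell carried AP-1 matches, as lost regions did. The motif was in 24.9% of fallen, 5.35% of risen and 7.33% of the other shared regions. SOX matches were in 17.1% of risen, 8.90% of fallen and 8.10% of other regions, and GATA matches in 47.4%, 51.8% and 31.6%. Fallen regions were called in 98.5% ± 0.160 of cases at 4 h and 43.7% ± 0.703 at 48 h (SD, n = 2). Risen regions were called in 80.5% ± 1.36 at 4 h, 96.2% ± 0.346 at 24 h and 79.8% ± 1.04 at 48 h. Both groups were promoter-proximal in 22.2% of cases, against 39.8% of all shared regions.

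The largest rise was at the TSS of Maml2, a coactivator of Notch signalling, 47 bp from the centre of chr9:13662220-13662793. It was at percentiles 3.54 and 0.908 at 8 h and at 85.1 and 90.2 at 16 h, a change of 3.25 ± 0.35 (SE, limma adjusted p = 8.18e-06). Hsbp1 (321931 bp away), Inava (2489 bp), Tpbgl (14265 bp) and Prokr1 (27546 bp) were nearest to the next 4, with rises of 2.72 to 3.02. At 8 h the Hsbp1 region was also at 3.54 and 0.908 and the Tpbgl region at 2.48 and 2.46, among the weakest calls. Normal scores stretch the ends of the ranking, so the largest changes favour regions that lie there at 1 time point. The Inava region was at 2.55 and 40.2 at 8 h and at 95.9 and 95.7 at 16 h, so its 8 h libraries lay far apart. The largest fall was at chr2:61308999-61309742, 269214 bp from Tank, which holds an AP-1 match. It was at 89.1 and 90.05 at 8 h and 4.58 and 9.72 at 16 h, a change of -2.75 ± 0.28 (SE, limma adjusted p = 4.48e-06). It was not called at 0, 24 or 48 h. The next falls were nearest to 4930447C04Rik (62234 bp), Prrc2b (4196 bp), Ext1 (161667 bp) and Rnf216 (54017 bp), from -2.57 to -2.34, and none of these 4 holds an AP-1 match. At 16 h the 4930447C04Rik region was at 0.486 and 2.71, the Prrc2b region at 0.213 and 2.94 and the Rnf216 region at 2.53 and 0.293. Each of the 5 fallen regions was called in neither 24 h and neither 48 h library.

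**Figure D5:**
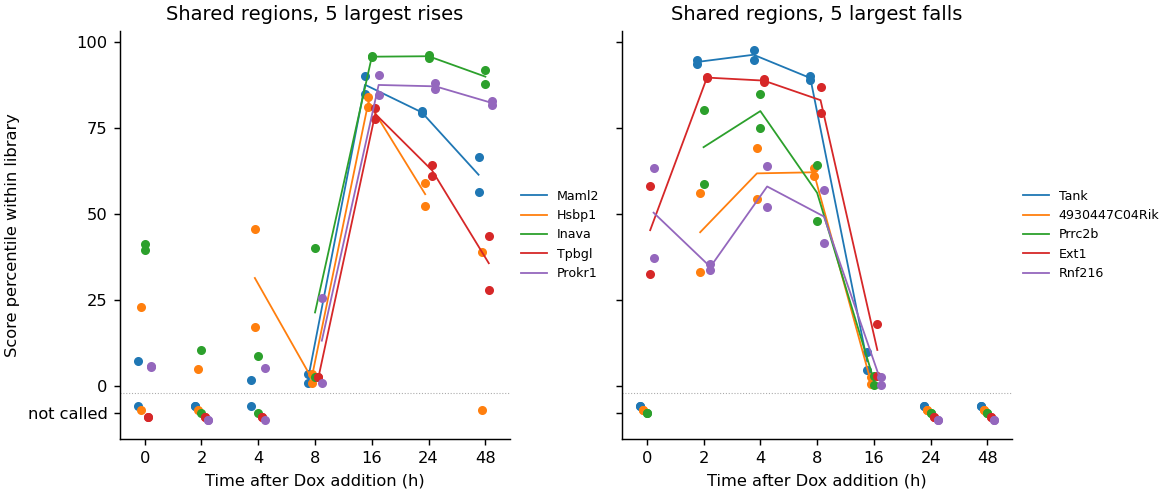
Score percentile within the library (y axis, 0 to 100, with libraries that did not call the region below the dotted line) over time after Dox addition (h, x axis, evenly spaced categories) for the 5 shared regions with the largest rise (left) and fall (right) from 8 h to 16 h, named by the nearest gene. Points are libraries, and lines join means of neighbouring time points where both libraries called the region; the Maml2 region goes from 3.54 and 0.908 to 85.1 and 90.2.

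Of shared regions assigned to genes, 7.20% rose and 5.07% fell. At the study's PrE genes 185 of 1623 rose (11.4%) and 87 fell (5.36%), and at its Epi genes 67 of 741 (9.04%) and 41 (5.53%). Basement membrane genes had 10 risen and 2 fallen of 46, naive pluripotency genes 13 and 2 of 73, FGF and ERK feedback genes 12 and 2 of 65, PrE regulators 7 and 3 of 62, and formative epiblast genes 5 and 0 of 31. At Sparc, a secreted matrix protein gene, the region at chr11:55438068-55438522 was at percentiles 17.6 and 27.6 at 8 h and 89.9 and 92.1 at 16 h. At Tcl1, a gene of naive pluripotency, chr12:105248738-105249349 was at 78.2 and 72.2 at 0 h, 9.18 and 5.92 at 8 h, 70.2 and 78.6 at 16 h and in 1 library at 48 h. At Klf5 a region 25712 bp from the TSS was at 98.6 and 96.8 at 0 h, 94.1 and 97.0 at 8 h, 84.7 and 81.8 at 16 h and in no library at 48 h. AP-1 genes had 0 risen and 2 fallen of 32, at Fosb (72.4 and 72.6 at 8 h, 57.7 and 27.7 at 16 h) and Junb (67.7 and 78.0 at 8 h, 43.5 and 38.2 at 16 h). These 5 regions were picked from the lists after their values were seen.

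The steps before and after, which share libraries with this one, were set beside it by the same rule. From 4 h to 8 h 3988 regions were gained and 4748 lost, and from 16 h to 24 h 3195 were gained and 7758 lost, so of the 3 steps only that from 8 h to 16 h had more gains than losses. AP-1 was in 28.1% of regions lost from 4 h to 8 h, 29.5% of those lost from 8 h to 16 h and 12.3% of those lost from 16 h to 24 h. SOX was in 9.33%, 17.5% and 11.3% of the regions gained at the 3 steps. Of gained regions 11.6% from 4 h to 8 h, 19.9% from 8 h to 16 h and 10.7% from 16 h to 24 h had been open at 0 h. The 16 h peaks covered 29.6 and 31.2 Mb and the 24 h peaks 24.6 and 26.1 Mb. The steps before and after were not compared with equal numbers of peaks, and the part of list size was not tested. These differences between steps were not tested either.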

How the data were processed

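The authors processed ATAC-seq reads with the ENCODE ATAC-seq pipeline and deposited 1 peak list per library, with a score per peak whose scale is not given in the sources used here. Per the file names, peaks passed an irreproducible discovery rate of 0.05 on pseudoreplicates of that library and a blacklist filter, so replicates were not pooled. The submitters' processing notes name mm10/GRCm38 and deepTools. No peak ended past its GRCm38 chromosome. Peak calls are thresholded, so a region without a call may be accessible below the threshold.

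Regions were merged and classed in Python 3.11.15 (numpy 2.4.6, pandas 2.3.3) and assigned to protein-coding TSSs of GENCODE M21. Motifs were sought on both strands of the central 200 bp. GATA matches and SOX matches were counted separately from AP-1 matches, and any overlap counts for each. Score ranks at shared regions were tested with limma 3.58.1 (R 4.3.3, trended prior, Benjamini-Hochberg). Functions were tested on simulated data. The replicate numbers do not pair the libraries (correlation of same-numbered deviations -0.080).

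Members, gene lists and tests were chosen with earlier results of these data known. PrE and Epi lists are the study's own, from blastocyst data. Named were the listed genes with most changed regions, the 5 genes with most gained or lost regions alone, the 3 top-scoring regions of each class outside chromosome 18 and the 5 largest rank changes each way. Exceptions are said to be chosen afterwards. Alternatives covered peak number, overlap, width, merging, distances, motif window, scaling, a replicate block and leaving out libraries. The result for 1 listed gene is not reported here.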

Additional observations from a re-analysis of the deposited data

How the results depend on the processing

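Of 157 alternative values, 84 stayed close to the value reported and 73 did not. Library differences in peak number, covered length and median width stayed positive whichever library was left out, and counts and shares have no sign. With the 50000 highest-scoring peaks, 21.8% of gained and 25.8% of lost regions were open at 0 h, gains were 55.2% of changed regions at Epi genes, SOX was in 18.4% of gained and AP-1 in 28.7% of lost regions, and with the 30000 highest 3672 regions were gained and 2890 lost. With 50% of the region covered, 22.3% of lost regions were open at 0 h and SOX was in 16.9% of gained ones. With 200 bp around peak midpoints, 21.7% of lost regions were open at 0 h, 21.8% were near a TSS, AP-1 was in 27.9% of them, and gains were 64.6% of changed regions at PrE genes. Calls in at least 1 library against neither gave 16074 gained and 12915 lost regions. Open in at least 1 library at 0 h were 30.9% of gained and 34.5% of lost regions. Within 1 kb of a TSS lay 7.29% and 8.11%, and a limit of 10 kb gave PrE genes a gained share of 75.1%. Over whole regions, GATA was in 61.5% of gained and 65.2% of lost, AP-1 in 11.3% and 40.1%, and SOX in 27.6% and 16.6%. In the 200 bp window the permuted control was in 20.6% of gained and 22.4% of lost regions. Beyond 5 kb, GATA and SOX were in 45.1% and 18.9% of gained regions, and AP-1 and SOX in 30.9% and 10.2% of lost ones. All 14 libraries in one fit gave 646 rises and 280 falls over the 18939 regions called in all of them, where the 4 libraries alone gave 726 and 329, so most of the drop came with the fewer regions. The causes of the other shifts were not tested. The motif alternatives other than for GATA, the regions beyond 5 kb and the fit of 4 libraries on those 18939 regions were added after seeing the data.

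Leaving out 1 library gave 10065 to 13039 gained and 6647 to 8948 lost regions, of which 17.6% to 25.9% and 19.8% to 29.1% were open at 0 h and 19.5% to 22.7% and 17.6% to 21.7% were near a TSS. Gained shares were 58.6% to 71.1% at PrE and 54.0% to 67.1% at Epi genes. In gained regions GATA was in 39.3% to 41.8%, AP-1 in 4.69% to 5.11% and SOX in 15.5% to 15.8%, and in lost regions in 44.0% to 48.0%, 23.7% to 24.8% and 8.62% to 9.48%. Orders between results were less stable. Rises outnumbered falls except without 16 h replicate 2, and which of gained and lost regions had the larger share open at 0 h or near a TSS changed with the library left out. Rises ran from 889 to 4486 and falls from 1329 to 2428, and the 16 h excess from 459 to 3675 peaks, 2.48 to 4.09 Mb and 44 to 59 bp of width. The replicate block gave 3311 rises and 2325 falls and changed no call by over 1.5 times. With 2 libraries per time point and no read counts, a missing call cannot be told from a weak signal.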

Other observations

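Markers of other lineages were set against all genes, where 7.87% of regions were gained and 4.94% lost. Trophectoderm genes had 4 gained and 2 lost of 72 regions (5.56% and 2.78%), mesoderm and definitive endoderm genes 5 and 2 of 38 (13.2% and 5.26%), neural genes 1 and 0 of 23, and blood genes 0 and 0 of 6. Both gained regions given to T, the mesoderm factor brachyury, lie in an intron of the gene T2, 23870 and 18632 bp from the TSS of T. They were called in no library of 0 to 8 h and in every library of 24 and 48 h. The lost region at Elf5, a trophectoderm factor, was called in both libraries at 2, 4 and 8 h and in no other. Among shared regions trophectoderm genes had 2 risen and 7 fallen of 42 by limma (4.76% and 16.7%, against 7.20% and 5.07% over all genes), the falls being 3 at Elf5 and 1 each at Tfap2c, Tead4, Krt8 and Krt18, and blood genes had 0 and 2 of 3.

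Further motifs differed between gained and lost regions. The FOXA motif (TGTTTAC) was in 5.67% of gained, 2.13% of lost and 2.90% of all regions, and the KLF motif (GGGTGTGG) in 7.61%, 3.74% and 5.57%. The TEAD motif (GGAATG) was in 15.5%, 18.03% and 14.6%. The CTCF motif was in 0.962% of gained, 2.81% of lost and 2.97% of all regions. FOXA factors are known from endoderm, and CTCF from chromatin loop anchors.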
